A study of Homo sapiens with 6 samples.

Results

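Kinesins are motor proteins that convert ATP hydrolysis into movement along microtubules or into microtubule disassembly. One set builds and moves the mitotic spindle, pulls or pushes chromosomes and organises the midzone where the daughter cells separate; its genes are transcribed mainly in G2 and M phase of dividing cells. Another set carries vesicles, mitochondria and other cargo, and the best known of these, kinesin-1, is a tetramer of a pair of KIF5 heavy chains and a pair of KLC light chains that bind cargo.

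The genes described here are the 35 of 12659 genes in the deposited table of FPKM (fragments scaled by transcript length and library size) whose symbol is KIF or KLC followed by a number and an optional letter. KIF5C was left out. By their textbook roles 10 were grouped as mitotic, 16 as transport and 9 as other kinesins. The family, its split into classes and the separate view of replicate 3 were chosen by the FPKM of all 6 libraries, with the line differences and the replicate 3 values already known. Line differences, calls and replicate 3 ranks are therefore given as a description. KIF2B, KIF4B, KIF6, KIF15, KIF19, KIF25 and KIF26B were not analysed here, and kinesin genes with other names, such as CENPE and KIFC1, were kept as a separate list.

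Polyadenylated RNA was sequenced from NCI-H1650Re, labelled post-SCLC, and NCI-H1650, labelled pre-LUAD, in 3 libraries per line and 6 in all. NCI-H1650 is a widely used human line from a lung adenocarcinoma (LUAD), and SCLC stands for small cell lung cancer. The comparison asks which genes differ between the lines. The cell line field of the labels reads NCI_H1650 for all 6 libraries, and the title and the time point separate the lines. The labels do not say how NCI-H1650Re was obtained, whether it is 1 clone or whether replicates came from separate cultures, so the spread between replicates may be technical.

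Depth, estimated from 33 genes with deposited counts, was 20.3, 21.6 and 18.1 M fragments in NCI-H1650Re and 22.3, 19.4 and 17.0 M in NCI-H1650. Replicate 3 stood apart in both lines: its log2 values correlated with replicates 1 and 2 at 0.980 and 0.988 in NCI-H1650Re, where replicates 1 and 2 correlated at 0.994, and at 0.988 and 0.990 in NCI-H1650, against 0.997. Of 8 adenocarcinoma markers, 4 were in the table and 3 fell (CDH1, EGFR and EPCAM). Of all genes tested, 13.9% were called lower and 16.6% higher. KRT7, a keratin of simple epithelia, did not pass but was higher in every NCI-H1650Re library (961 to 1102 FPKM) than in NCI-H1650 (712 to 942 FPKM), and it was called higher without both replicate 3 libraries (0.51). Among 8 small cell lung cancer markers 3 were in the table, and CHGA, a secretory granule protein, rose. It averaged 3.39 FPKM in NCI-H1650Re and 0.563 FPKM in NCI-H1650. A mean of 1 FPKM, needed for testing, was thus reached only in the line where CHGA was higher, so that filter favoured its direction. DLL3 (0.29) and SYP (0.25) did not pass, but both were called higher without both replicate 3 libraries. In that fit 23.7% of all genes were called higher and 19.4% lower, so calls were more frequent. No value was used here for NKX2-1, NAPSA, NEUROD1, POU2F3 or INSM1, so these defining factors do not check the labels.

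A gene was called where limma on log2(FPKM + 1) gave a Benjamini-Hochberg adjusted p under 0.05 over the 11764 genes tested, whose mean reached 1 FPKM in NCI-H1650Re, in NCI-H1650 or in both. Differences are NCI-H1650Re minus NCI-H1650 on that log2 scale, which understates the change of low genes; the SE is limma's. Of the 35 members 31 were tested. Over all genes tested, 16.6% were called higher (1952) and 13.9% lower (1635) in NCI-H1650Re. With median-of-ratios scaling that balance turned, to 1666 higher and 1862 lower. The counts of mitotic and other kinesins called were then the same, and 6 transport kinesins were called higher, against 7, as KIF1A was lost. The median difference was 0.33 for mitotic and 0.25 for transport kinesins, against 0.37 and 0.28 without that scaling. Among the members 13 were called higher, 1 was called lower and 17 were not called, with a median difference of 0.29, against 0.03 over all genes tested.

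**Figure D1:**
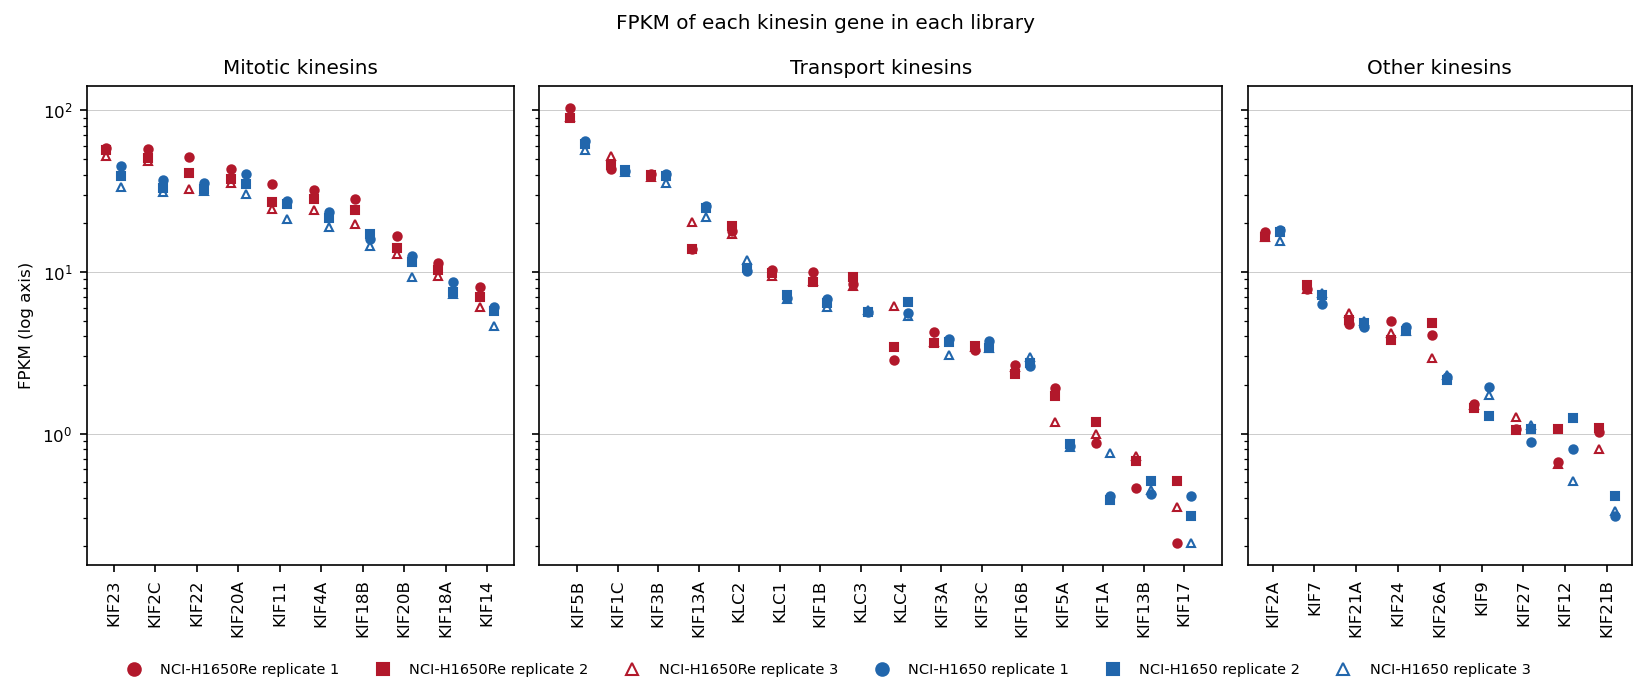
FPKM (log axis) of each of the 35 kinesin genes in each library, with NCI-H1650Re in red left of NCI-H1650 in blue and replicate 3 as open triangles; genes are sorted by mean level within the mitotic, transport and other classes. KIF5B stood highest, at 90.2 to 103.8 FPKM in NCI-H1650Re and 56.75 to 64.35 FPKM in NCI-H1650, and the open triangle was the lowest of its line for every mitotic gene.

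Promoter motifs, which the choice of members did not use, were counted in each class. The cell cycle genes homology region (CHR), searched as TTTGAA on both strands, and the CCAAT box, searched as CCAAT on both strands, are found together in many genes transcribed in G2 and M phase. RefSeq promoters (GRCh38.p14, 250 bases before to 50 after the start) were matched for 29 of the 35 members. KIF13B, KIF5A, KLC2, KLC4, KIF21B and KIF27 were not matched. A gene with several starts counted once if any of its promoters held the motif. A CHR match was present for 7 of 10 mitotic genes (70.0%), 1 of 12 transport genes (8.33%) and 0 of 7 other genes, against 18.2% of 27305 genes with a promoter and 13.3% of the 8767 of these that were tested. A CCAAT match was present for 9 of 10 mitotic genes (90%), 3 of 12 transport genes (25%) and 2 of 7 other genes (28.6%), against 39.7% of all genes. Both motifs were present for 70.0% of mitotic genes and 7.26% of all genes.

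These promoters are shown because they span the pattern: both motifs near the start in 4 mitotic genes, neither in KIF2C, and both in KIF5B, the transport gene with a CHR match. Each is the stretch of 150 bases that ends 1 base before the RefSeq start, read 5′ to 3′ on the gene's strand, with matches to either motif in capitals (ATTGG and TTCAAA are the same motifs read on the other strand).
KIF23 (chr15:69414199-69414348, plus strand): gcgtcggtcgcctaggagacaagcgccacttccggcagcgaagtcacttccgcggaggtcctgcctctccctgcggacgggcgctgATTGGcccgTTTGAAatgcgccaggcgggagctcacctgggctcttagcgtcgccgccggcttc
KIF4A (chrX:70289954-70290103, plus strand): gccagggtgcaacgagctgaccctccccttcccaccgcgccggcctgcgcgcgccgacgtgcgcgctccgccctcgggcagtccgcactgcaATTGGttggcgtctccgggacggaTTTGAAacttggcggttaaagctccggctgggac
KIF11 (chr10:92592980-92593129, plus strand): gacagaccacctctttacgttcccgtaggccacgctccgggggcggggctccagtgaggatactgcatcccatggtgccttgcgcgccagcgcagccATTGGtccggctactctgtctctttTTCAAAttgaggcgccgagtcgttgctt
KIF18A (chr11:28108157-28108306, minus strand): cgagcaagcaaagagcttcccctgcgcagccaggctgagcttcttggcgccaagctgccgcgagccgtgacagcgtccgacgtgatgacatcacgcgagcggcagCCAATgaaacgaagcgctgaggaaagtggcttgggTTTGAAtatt
KIF2C (chr1:44739687-44739836, plus strand): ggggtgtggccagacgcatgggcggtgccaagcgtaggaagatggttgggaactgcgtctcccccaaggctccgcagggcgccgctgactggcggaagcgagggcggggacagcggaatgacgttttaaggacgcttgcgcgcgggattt
KIF5B (chr10:32056426-32056575, minus strand): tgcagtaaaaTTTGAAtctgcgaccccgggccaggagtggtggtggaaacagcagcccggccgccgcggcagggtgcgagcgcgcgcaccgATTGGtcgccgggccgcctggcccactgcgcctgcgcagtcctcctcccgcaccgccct
Counted with the start as position 1 and the base before it as -1, the CHR match began at position -55 in KIF23, -34 in KIF4A, -28 in KIF11 and -10 in KIF18A, and the CCAAT match at -64, -58, -53 and -45 in the same genes. KIF14, KIF18B and KIF20B held their CHR matches just after the start, and KIF5B held its match at -140. KIF20A and KIF22 held no TTTGAA. With TTCGAA also accepted, KIF22 and, among the other kinesins, KIF24 had a match, and the mitotic share was 80.0%, against 19.5% of all genes. A match describes letters in this window and is not a measured binding site.

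**Figure D2:**
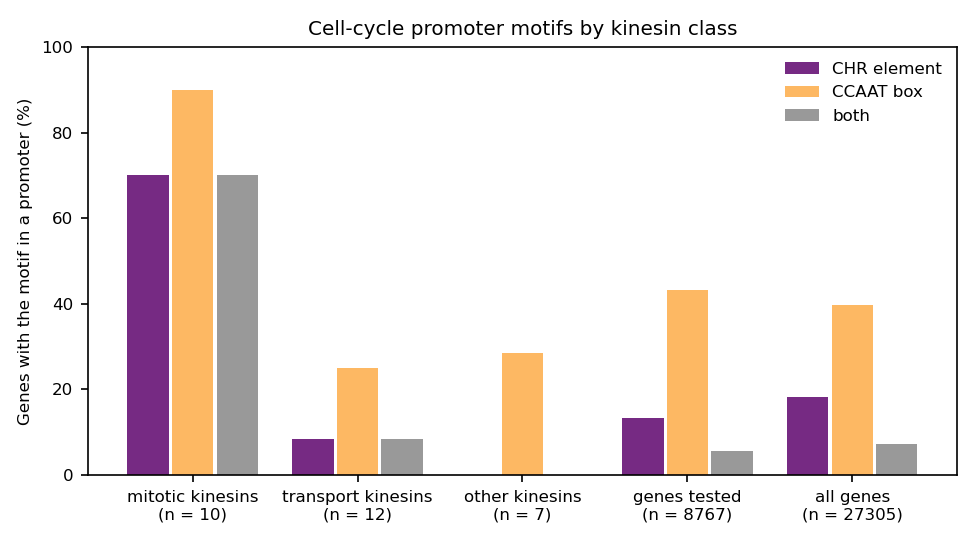
Percentage of genes with a CHR match, a CCAAT match or both in a RefSeq promoter, for the 3 kinesin classes, the genes tested and all genes with a promoter; n is the number of genes with a promoter. The mitotic bars stand at 70.0%, 90% and 70.0%, and the transport bars at 8.33%, 25% and 8.33%.

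All 10 mitotic kinesins had a positive line difference, from 0.14 to 0.62, with a median of 0.37. Of these 5 rose in NCI-H1650Re, none fell and 5 did not pass, beside 16.6% of all genes called higher and 13.9% called lower. At an unadjusted p under 0.05 in limma, 7 were higher and 0 lower, a threshold at which the share of all genes was not computed. In 7 of the 10 every NCI-H1650Re library was above every NCI-H1650 library, as for 26.3% of all genes tested. In bulk RNA, more cells in mitosis and more transcript per cell cannot be told apart. The count of rises changed when single libraries were left out. It was 1 without NCI-H1650Re replicate 2 and 8 without NCI-H1650Re replicate 3. It was 3 without NCI-H1650Re replicate 1, NCI-H1650 replicate 2 or NCI-H1650 replicate 3. Genes called higher in all went from 1952 to 927 without NCI-H1650Re replicate 2 and to 2476 without NCI-H1650Re replicate 3. The mitotic median difference ran from 0.28 to 0.44 with single libraries left out. With a replicate block in the fit 7 mitotic kinesins rose, beside 1902 genes called higher in all.

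KIF2C (also known as MCAK) takes tubulin off microtubule ends at kinetochores. It stood at 57.4, 50.8 and 48.6 FPKM in NCI-H1650Re and at 36.8, 33.2 and 31.3 FPKM in NCI-H1650. The lines did not overlap, and the difference of 0.62 (SE 0.09) was the largest of the mitotic class. KIF2C was the mitotic member whose call held in every alternative setting, and its promoter held neither motif.

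At the spindle midzone, KIF23 (MKLP1) forms the centralspindlin complex with RACGAP1, and that complex recruits the RhoA activator ECT2. KIF23 reached 58.3, 57.15 and 52.3 FPKM in NCI-H1650Re, against 45.0, 39.3 and 33.5 FPKM in NCI-H1650 (difference 0.51, SE 0.11), with no overlap. Its partners RACGAP1 (0.42, SE 0.12) and ECT2 (0.37, SE 0.11) also rose. KIF4A, a chromokinesin that sets midzone length, had 32.2, 28.3 and 24.2 FPKM in NCI-H1650Re and 23.4, 21.45 and 19.05 FPKM in NCI-H1650 (0.39, SE 0.12). The lowest NCI-H1650Re library of KIF4A lay close above the highest of NCI-H1650, and its values could include reads of the near-identical retrocopy KIF4B.

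KIF18A and KIF18B act on the plus ends of spindle microtubules, where KIF18A limits chromosome movement before anaphase. KIF18A was at 11.4, 10.25 and 9.50 FPKM in NCI-H1650Re, against 8.71, 7.54 and 7.26 FPKM in NCI-H1650 (0.37, SE 0.09). KIF18B was at 28.2, 24.1 and 19.7 FPKM in NCI-H1650Re and at 16.03, 17.2 and 14.5 FPKM in NCI-H1650 (0.55, SE 0.13). For both genes the lines did not overlap.

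Of the 5 mitotic genes that did not pass, KIF14 and KIF20B had lines that did not overlap, and KIF11, KIF20A and KIF22 overlapped. KIF11 (Eg5), which slides antiparallel microtubules apart to separate the spindle poles, had 35.1, 27.25 and 24.4 FPKM in NCI-H1650Re and 27.4, 26.35 and 21.2 FPKM in NCI-H1650. Its difference was 0.20, with a 95% interval from -0.14 to 0.54. KIF20A (MKLP2), which brings the chromosomal passenger complex to the midzone, had 43.6, 37.7 and 35.3 FPKM in NCI-H1650Re and 40.3, 35.02 and 30.2 FPKM in NCI-H1650 (0.14, 95% interval -0.13 to 0.42).

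KIF22 (Kid), which binds chromosome arms, had 51.1, 40.8 and 32.7 FPKM in NCI-H1650Re and 35.7, 32.6 and 31.9 FPKM in NCI-H1650 (0.29, 95% interval -0.06 to 0.63). NCI-H1650Re replicate 3 lay among the NCI-H1650 values. KIF20B, which acts in late cytokinesis, had 16.8, 14.1 and 12.99 FPKM in NCI-H1650Re and 12.6, 11.55 and 9.27 FPKM in NCI-H1650 (0.37, 95% interval 0.07 to 0.67). KIF14, which recruits citron kinase to the midbody, averaged 7.06 ± 0.999 FPKM in NCI-H1650Re and 5.48 ± 0.756 FPKM in NCI-H1650 (SD, n = 3 each). Without NCI-H1650Re replicate 3, KIF14 (0.40), KIF20B (0.45) and KIF22 (0.44) were called higher; KIF18B (0.54) and KIF23 (0.49) were not called without NCI-H1650Re replicate 2. The call of KIF18A was lost without NCI-H1650Re replicate 1 or 2 or NCI-H1650 replicate 2 or 3, at differences of 0.30 to 0.37. That of KIF4A was lost without each of the same libraries, without NCI-H1650 replicate 1 and with quantile normalization, at 0.29 to 0.45.

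The partners of the mitotic kinesins are kinases, checkpoint proteins and spindle proteins that act with them. Of 23 tested, 15 rose, none fell and 8 did not pass, with a median difference of 0.42. Over all genes tested, 16.6% were called higher and 13.9% lower. At an unadjusted p under 0.05 in limma, 17 partners were higher and 2 lower, a threshold at which the share of all genes was not computed. Without both replicate 3 libraries 15 partners were called higher and 2 lower, CDK1 (-0.47) and NDC80 (-0.31). In that fit 23.7% of all genes were called higher and 19.4% lower. The largest rises were those of the kinase AURKA (0.81), the checkpoint kinase BUB1 (0.77), cyclin B1, encoded by CCNB1 (0.71), and TPX2 (0.68), a spindle assembly factor that binds KIF11. Among 18 proliferation markers 6 rose, 4 fell and 8 did not pass, beside 16.6% of all genes called higher and 13.9% lower. At the unadjusted threshold 6 were higher and 5 lower. Their median of -0.01 covered changes in both directions. The largest rises were those of CDC20 (1.09) and UBE2C (0.88), and the largest falls those of MCM3 (-0.53) and MCM4 (-0.36). CENPE, the kinetochore kinesin-7, rose to 10.9 ± 1.63 FPKM in NCI-H1650Re, against 7.29 ± 1.14 FPKM in NCI-H1650 (0.52, SE 0.13). KIFC1, a minus-end kinesin that clusters centrosomes, did not pass; it had 16.3, 15.8 and 20.3 FPKM in NCI-H1650Re and 18.6, 19.2 and 16.2 FPKM in NCI-H1650.

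**Figure D3:**
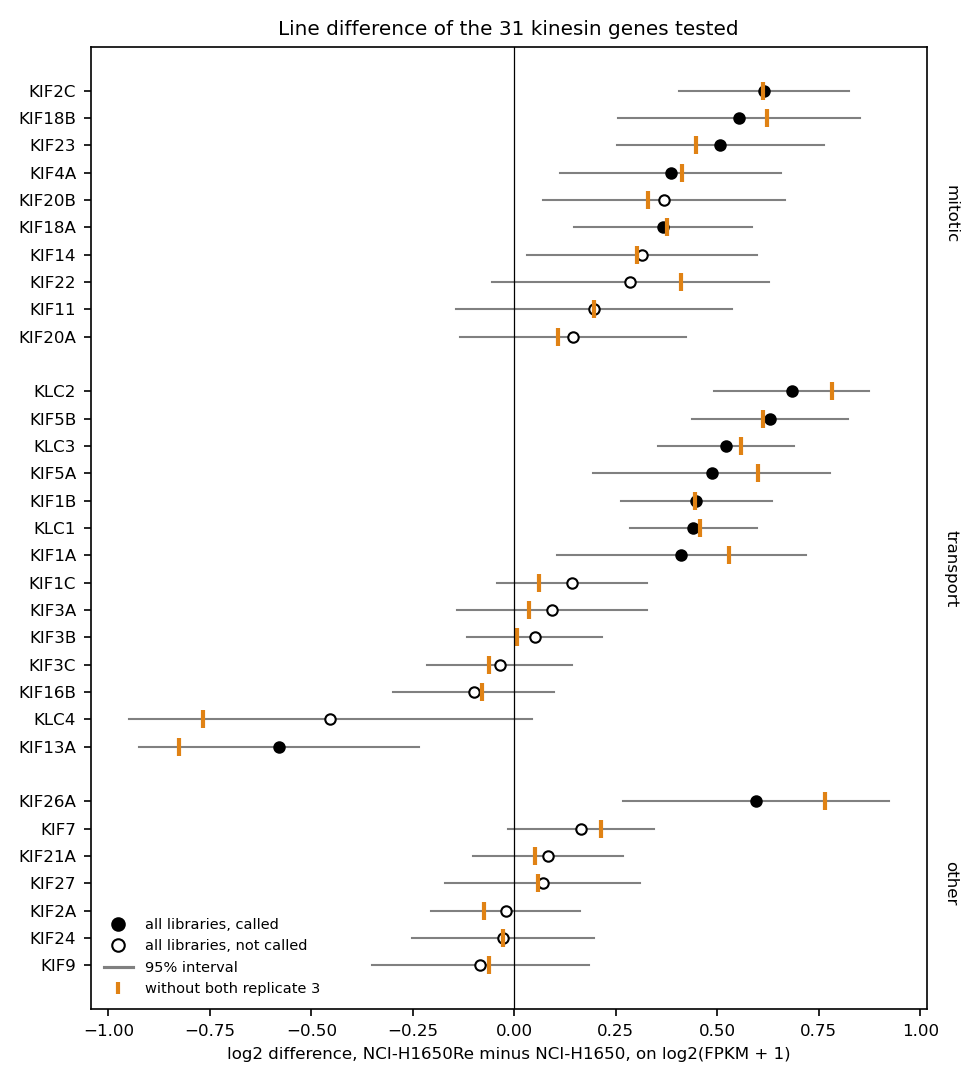
Line difference on log2(FPKM + 1), NCI-H1650Re minus NCI-H1650, for the 31 kinesin genes tested, with the 95% interval of limma; filled points were called, and orange ticks give the value without both replicate 3 libraries. Mitotic genes run from 0.14 to 0.62, whereas transport genes spread from -0.58 for KIF13A to 0.68 for KLC2.

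Transport kinesins went several ways. Of 14 tested, 7 rose, 1 fell and 6 did not pass, beside 16.6% of all genes called higher and 13.9% called lower. The lines did not overlap for 8 higher and 1 lower of them, as for 26.3% and 21.0% of all genes. Their median difference was 0.28, and it was 0.15 with no filter, 0.44 with a filter at 5 FPKM and 0.16 without NCI-H1650Re replicate 2. The kinesin-1 subunits accounted for 5 of the 7 rises. KIF1A and KIF5A, 2 of the 7, reached the filter of 1 FPKM only in NCI-H1650Re, the line where they were higher, so the filter favoured their direction. The count of called transport genes was 5 without NCI-H1650Re replicate 1, NCI-H1650Re replicate 2, NCI-H1650 replicate 1 or NCI-H1650 replicate 2. KIF13A was not among them. In those fits 1785 to 2923 genes were called in all, against 3587 with all libraries.

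KIF5B, the ubiquitous kinesin-1 heavy chain, had the highest FPKM of the family. It was at 103.8, 90.2 and 90.5 FPKM in NCI-H1650Re and at 64.35, 61.55 and 56.75 FPKM in NCI-H1650. The lines stood far apart, with a difference of 0.63 (SE 0.08). KIF5B lies on chromosome 10, 32009010 to 32056431 (GRCh38, GENCODE release 29), and the 12 tested genes on either side of it had a median difference of 0.27. That median exceeded the 95th percentile of such medians over 11037 genes, 0.19. Of the members tested, only KIF5B and KIF3B (0.21) had neighbours above that percentile and none had neighbours below the 5th percentile, -0.25. Neighbours of KIF5A (0.1852) and KLC3 (0.1812) lay just under the 95th percentile of 0.1853, and those of KIF3A (-0.25) lay at the 5th. The part of the neighbours' shift in the KIF5B value was not tested.

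KIF5A, a heavy chain known mainly from neurons, rose at a low level, to 1.91, 1.70 and 1.18 FPKM in NCI-H1650Re, against 0.84, 0.86 and 0.82 FPKM in NCI-H1650 (0.49, SE 0.13). Its call was lost without each single library except NCI-H1650Re replicate 3, at differences of 0.40 to 0.49.

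Light chains rose in 3 of 4 cases. KLC1 had 10.2, 9.82 and 9.38 FPKM in NCI-H1650Re and 6.90, 7.16 and 6.82 FPKM in NCI-H1650 (0.44, SE 0.07). KLC2 had 17.9, 19.1 and 17.1 FPKM in NCI-H1650Re and 10.1, 10.6 and 11.9 FPKM in NCI-H1650 (0.68, SE 0.08), the largest tested difference of the family on the log2(FPKM + 1) scale. With a pseudocount of 0.1 the differences of KIF1A (0.88), KIF5A (0.83) and KIF26A (0.77) exceeded that of KLC2 (0.73). KLC2 thus showed no overlap between lines, as did KLC1 and KLC3. KLC3 had 8.37, 9.29 and 8.24 FPKM in NCI-H1650Re and 5.65, 5.69 and 5.78 FPKM in NCI-H1650 (0.52, SE 0.07).

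KLC4 went the other way in 2 of 3 libraries and did not pass. It had 2.84, 3.41 and 6.16 FPKM in NCI-H1650Re, against 5.55, 6.49 and 5.34 FPKM in NCI-H1650 (-0.45, SE 0.21). NCI-H1650Re replicate 3 lay within the NCI-H1650 range, and without that library KLC4 was called lower (-0.72). KLC4 made up 7.22%, 8.19% and 15.1% of the summed FPKM of the 4 light chains in NCI-H1650Re, and 19.7%, 21.7% and 17.9% in NCI-H1650. The summed light chains stood at 0.37, 0.45 and 0.45 of the summed FPKM of KIF5A and KIF5B in NCI-H1650Re and at 0.43, 0.48 and 0.52 in NCI-H1650. These ratios overlapped between lines.

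Kinesin-2 carries cargo inside cilia and in the cytoplasm as a trimer of KIF3A, KIF3B or KIF3C, and KIFAP3, and none of its genes passed. KIF3B had 40.2, 39.9 and 38.8 FPKM in NCI-H1650Re and 40.4, 39.3 and 35.3 FPKM in NCI-H1650 (0.05, 95% interval -0.12 to 0.22). KIF3A had 4.23, 3.61 and 3.67 FPKM in NCI-H1650Re and 3.87, 3.71 and 3.05 FPKM in NCI-H1650 (0.09, 95% interval -0.14 to 0.33). KIF3C differed by -0.04 and KIFAP3 by 0.16. The lines overlapped for both genes.

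Kinesin-3 motors, fast carriers of vesicles and endosomes, diverged. KIF13A, which moves recycling endosomes and melanosome precursors, fell to 13.83, 13.85 and 20.4 FPKM in NCI-H1650Re, against 25.6, 25.02 and 21.7 FPKM in NCI-H1650 (-0.58, SE 0.15). The lines did not overlap, but NCI-H1650Re replicate 3 came close to NCI-H1650 replicate 3. Without both replicate 3 libraries the difference was -0.83. Without NCI-H1650Re replicate 1 or 2, or NCI-H1650 replicate 1 or 2, the call was lost, at -0.55 to -0.49.

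KIF1B, a carrier of mitochondria and synaptic vesicle precursors, rose to 9.96, 8.70 and 8.73 FPKM in NCI-H1650Re, against 6.78, 6.38 and 6.10 FPKM in NCI-H1650 (0.45, SE 0.08). KIF1A, its neuronal relative, had 0.87, 1.18 and 0.99 FPKM in NCI-H1650Re and 0.41, 0.39 and 0.76 FPKM in NCI-H1650 (0.41, SE 0.13). Its call was the least stable of the family. It was lost without NCI-H1650Re replicate 1 (0.46), NCI-H1650Re replicate 3 (0.42), NCI-H1650 replicate 1 (0.36) or NCI-H1650 replicate 2 (0.35). Pseudocounts of 0.1 (0.88) and 0.01 (1.01), median-of-ratios scaling (0.39) and a replicate block in the fit (0.41) also ended it. Without NCI-H1650Re replicate 2 KIF1A was under the filter and was not tested.

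KIF1C, which moves integrins and dense-core vesicles, did not pass. It had 43.1, 45.6 and 51.9 FPKM in NCI-H1650Re and 42.35, 42.6 and 41.8 FPKM in NCI-H1650 (0.14, 95% interval -0.04 to 0.33). KIF16B, an early endosome motor, differed by -0.10 and did not pass. KIF13B (0.623 ± 0.144 FPKM in NCI-H1650Re, 0.460 ± 0.0458 in NCI-H1650; SD, n = 3 each) and KIF17 (0.21 to 0.51 FPKM in NCI-H1650Re, 0.21 to 0.41 in NCI-H1650) were under the filter and not tested. Cargo adaptors, the proteins that link these motors to vesicles, had 6 rises and 5 falls among 32 tested, with a median of 0.08, beside 16.6% of all genes called higher and 13.9% called lower. Their counts thus lay near those shares. The largest differences among the called adaptors were those of MAPK8IP2 (0.89) and SPAG9 (0.52), scaffolds that bind kinesin-1, the dynein adaptor HOOK1 (-0.86) and the vesicle GTPase RAB27B (-0.80). Dynein and dynactin, the minus-end motor complex, had 3 rises and 2 falls among 23, with a median of -0.02, beside the same shares of all genes. At an unadjusted p under 0.05 in limma, 12 adaptors were higher and 7 lower. At that threshold 7 dynein and dynactin genes were higher and 4 lower, and 7 transport kinesins were higher and 1 lower. The share of all genes was not computed there.

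**Figure D4:**
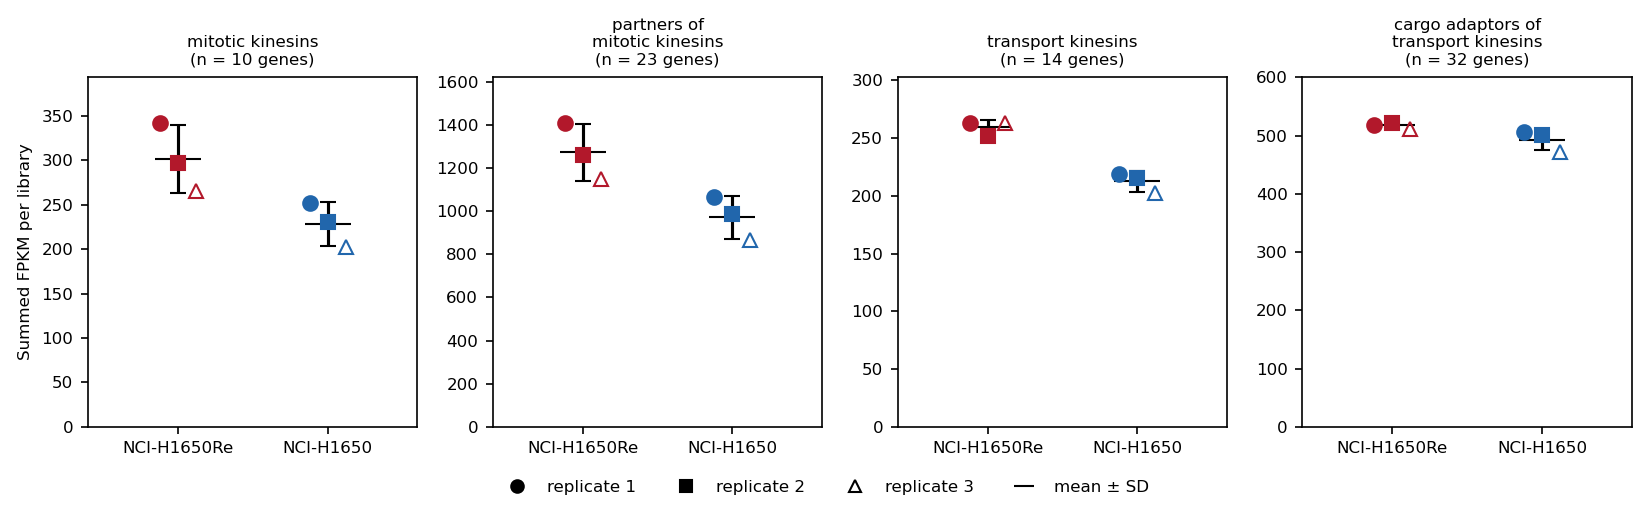
Summed FPKM per library over the tested members of 4 lists, NCI-H1650Re left of NCI-H1650, with the mean ± SD of 3 libraries as bars and replicate 3 as an open triangle. Mitotic kinesins summed to 266 to 342 in NCI-H1650Re and 203 to 252 in NCI-H1650, with replicate 3 lowest in both lines, and transport kinesins to 252 to 263 in NCI-H1650Re and 202 to 219 in NCI-H1650.

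Summed over tested members, mitotic kinesins averaged 302 ± 38.4 FPKM in NCI-H1650Re and 228 ± 24.7 FPKM in NCI-H1650, and transport kinesins 259 ± 6.30 FPKM in NCI-H1650Re and 213 ± 8.88 FPKM in NCI-H1650 (SD, n = 3 each). KIF5B alone made up 34.4% to 39.4% of the transport sum in NCI-H1650Re and 28.0% to 29.3% in NCI-H1650. The SD of the mitotic sum was larger than that of the transport sum in each line. Mitotic genes made up 52.9%, 50.4% and 46.7% of the family sum in NCI-H1650Re and 49.4%, 47.5% and 45.8% in NCI-H1650, so replicate 3 had the smallest mitotic share in both lines.

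Replicate 3 held the lowest value of its line for 10 of 10 mitotic genes in NCI-H1650Re and for 10 of 10 in NCI-H1650. Over all genes tested, replicate 3 was lowest for 44.6% in NCI-H1650Re, 42.9% in NCI-H1650 and 21.4% in both lines at once. Among 14 transport genes it was lowest for 5 in NCI-H1650Re, 10 in NCI-H1650 and 3 in both, and among 7 other genes for 1 in NCI-H1650Re, 2 in NCI-H1650 and 0 in both. The median distance of replicate 3 from the mean of replicates 1 and 2 was -0.24 for mitotic genes in NCI-H1650Re and -0.26 in NCI-H1650 on the log2 scale. It was -0.06 in NCI-H1650Re and -0.05 in NCI-H1650 for transport genes, and -0.02 in each line over all genes tested. These values are of the size of the line differences of several mitotic genes.

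Partners of the mitotic kinesins had replicate 3 lowest in both lines for 20 of 23 (87.0%), and proliferation markers for 10 of 18 (55.6%). In transport genes the large deviations belonged to KLC4 (0.80) and KIF13A (0.53) in NCI-H1650Re replicate 3, both toward the NCI-H1650 level. KIF26A (-0.46), of the other class, and the transport gene KIF5A (-0.36) were low in that library, which also moved them toward the NCI-H1650 level. The mitotic genes KIF22 (-0.47) and KIF18B (-0.39) were low there too. Why replicate 3 stood apart was not tested.

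**Figure D5:**
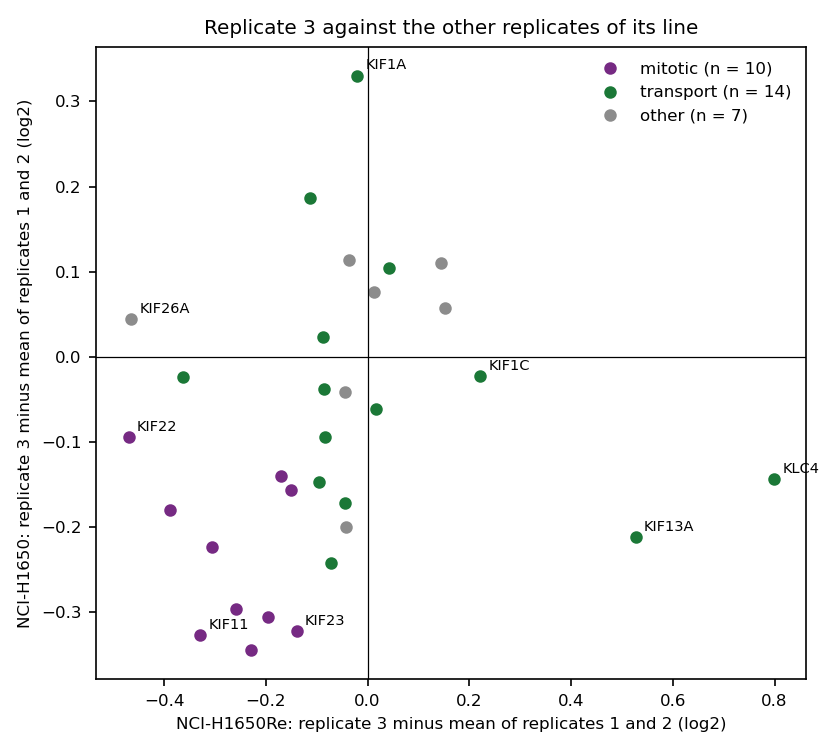
Replicate 3 minus the mean of replicates 1 and 2 on log2(FPKM + 1), in NCI-H1650Re (x axis) and NCI-H1650 (y axis), for the 31 tested kinesin genes coloured by class. The 10 mitotic points lie below 0 on both axes, and KLC4 (0.80) and KIF13A (0.53) lie far to the right.

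Without both replicate 3 libraries 8 of 10 mitotic genes rose and none fell, 7 of 14 transport genes rose and 2 fell (KIF13A and KLC4), and 2 of the 9 other genes then tested rose (KIF26A and KIF21B), beside 23.7% of all genes called higher and 19.4% called lower in that fit. The median difference was then 0.39 for mitotic and 0.25 for transport genes. The mitotic median thus changed little (0.37 with all libraries), while KIF14, KIF20B and KIF22 also passed. Single genes moved more, such as KIF22 from 0.29 to 0.41 and KIF23 from 0.51 to 0.45.

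Other kinesins had 1 rise, no fall and 6 that did not pass among 7 tested, with a median of 0.07. Over all genes tested, 16.6% were called higher and 13.9% lower, so 1 rise among 7 lay near the share called higher. At an unadjusted p under 0.05 in limma, 1 was higher and 0 were lower, a threshold at which the share of all genes was not computed. KIF26A, whose mouse protein lacks motor ATPase activity, rose to 4.05, 4.85 and 2.94 FPKM in NCI-H1650Re, against 2.25, 2.15 and 2.30 FPKM in NCI-H1650 (0.59, SE 0.14). The call was lost without NCI-H1650Re replicate 2 (0.46), NCI-H1650 replicate 1 (0.60) or NCI-H1650 replicate 2 (0.58), and no gene of that class was then called.

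KIF2A, a microtubule depolymerase of the KIF2C family used in spindles and in neurons, had 17.6, 16.5 and 16.5 FPKM in NCI-H1650Re and 18.3, 17.7 and 15.55 FPKM in NCI-H1650 (-0.02, 95% interval -0.21 to 0.16). The lines overlapped. KIF7, a ciliary regulator of Hedgehog signalling, had 7.80, 8.26 and 7.80 FPKM in NCI-H1650Re and 6.37, 7.22 and 7.42 FPKM in NCI-H1650 (0.16, 95% interval -0.02 to 0.34). KIF21A, which slows microtubule growth at the cell cortex, differed by 0.08, and KIF24, which restrains cilium assembly at centrioles, by -0.03. The lines did not overlap for KIF7, although it did not pass. KIF27, just inside the filter at 1.13 FPKM in NCI-H1650Re, differed by 0.07, and KIF9, a motor of motile cilia, by -0.08.

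KIF21B is described because the authors marked it, a choice made after its values were seen. With a mean of 0.967 FPKM in NCI-H1650Re it lay just under the filter and was not tested, whereas KIF1A, at 1.01, lay just inside it. KIF21B, a regulator of microtubule dynamics in neurons and immune cells, had 1.02, 1.08 and 0.80 FPKM in NCI-H1650Re and 0.31, 0.41 and 0.33 FPKM in NCI-H1650. Its deposited counts were 206, 231 and 144 in NCI-H1650Re and 69, 78 and 56 in NCI-H1650, so these low values rest on at least 56 fragments per library. The lines did not overlap. KIF12, the remaining member under the filter, averaged 0.793 ± 0.231 FPKM in NCI-H1650Re and 0.853 ± 0.373 FPKM in NCI-H1650 (SD, n = 3 each).

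In the authors' deposited table the log2 fold change of KIF21B was 1.44, and KIF21B was the single member marked as regulated. The authors' deposited table gave an FDR under 0.05 for 6 of 10 mitotic members, all higher, for 7 higher and 1 lower of 16 transport members, and for 2 higher of 9 others, beside 13.0% of all its genes higher and 14.9% lower. Its log2 fold changes were 0.60 for KIF2C, 0.61 for KIF5B and -0.62 for KIF13A. KIF20B was the tested member under that FDR that limma did not call here.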

How the data were processed

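RNA of 3 libraries per line was compared between NCI-H1650Re and NCI-H1650. The authors deposited FPKM per gene and library. Per the submitters' processing notes, HISAT2, Bowtie2, RSEM and DESeq2 were used, with no version named. The notes name the build mm10, although identifiers are human, and their build was not given in the sources used here. Counts were deposited by the authors for the 860 genes they marked as regulated, so a count model over all genes was not run. The FDR, an adjusted p-value, and the log2 fold change are the authors', per the file headers.

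Genes whose mean reached 1 FPKM in a line were fitted in limma 3.58.1 (R 4.3.3) on log2(FPKM + 1) with a variance trend, with the line as the only term. The fit was tested on simulated data with independent noise in each library. That test held no shared low replicate 3, so it does not bear on the mitotic calls. Depth came from counts over FPKM and transcript length (GENCODE release 29). Lists and members were chosen with earlier results of these data known. All members were named. Values per library were given for called members and, per class, up to 4 others with the highest FPKM. Up to 4 called genes per other list were named. RACGAP1, ECT2, CDK1, NDC80, KRT7, DLL3 and SYP were also named, after their values were seen. Protein sequences were not used here. Python 3.11.15 and matplotlib 3.10.9 drew the figures.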

Additional observations from a re-analysis of the deposited data

How the results depend on the processing

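Of the 15 alternatives, 7 left out libraries; the rest changed the pseudocount (0.1, 0.01), the filter (none, 5 FPKM), the scaling (quantile, median-of-ratios), the variance trend or added a replicate block. KIF2C, KIF1B, KIF5B, KLC1, KLC2 and KLC3 kept their calls in each. With KIF2A placed among the mitotic kinesins, 5 of that class were called. Leaving out single libraries gave 1 to 8 called mitotic, 5 to 8 transport and 0 to 2 other kinesins, and 1785 to 4478 called genes in all. The lowest totals, 1785, 1898 and 2386, came without NCI-H1650 replicate 2, NCI-H1650Re replicate 2 and NCI-H1650 replicate 1. Without both replicate 3 libraries 8 mitotic and 2 other kinesins were called. With no filter 2 other kinesins were called, KIF21B being added to the tested genes, and with the filter at 5 FPKM 0 were, KIF26A being untested. With single libraries left out, differences near 0 changed sign within ranges of -0.115 to 0.0434 for KIF24 (NCI-H1650Re replicate 2), -0.0888 to 0.0221 for KIF2A (NCI-H1650 replicates 1 and 2), -0.00757 to 0.0882 for KIF3B (NCI-H1650 replicate 3) and -0.0568 to 0.000284 for KIF3C (NCI-H1650 replicate 1). Deviations of same-numbered libraries correlated at 0.17, -0.04 and 0.21, and those of differently numbered libraries at -0.26 to 0.23. The numbers were therefore not taken as pairs, although replicate 3 was low in both lines for the mitotic genes. The replicate block gave 7 mitotic, 7 transport and 1 other kinesin called, with KIF14 and KIF20B added and KIF1A not called (0.41). Of 455 values of single members under alternatives, 408 kept direction and call. Counts of the members under 1 FPKM other than KIF21B were not used here.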
